A study of Mus musculus with 6 samples.

Results

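Complement components made by macrophages were examined in bone-marrow-derived macrophages (BMDMs) under excess salt. The 7 genes were taken by symbol: *C1qa*, *C1qb*, *C1qc*, *C4b*, *C3*, *Cfp* and *Cfb*, out of 57010 genes in the table of raw counts. The authors' annotated table of 15903 genes held 6 of them, and *Cfb*, with 4 reads in all, was reached by its gene identifier in the raw table. BMDMs are macrophages grown from bone marrow in culture with the growth factor M-CSF (10 ng/ml), and here the marrow came from 3 *Cx3cr1*GFP mice on the C57BL/6J background, so that controls and treated cells alike carried GFP in the *Cx3cr1* locus. Adherent cells of each mouse were sequenced as an unstimulated control (n = 3) and after 62 mM additional NaCl for 24 h (NaCl, n = 3), and libraries with the same number came from the same mouse. The age and sex of the mice are not given in the sources used here.

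Complement is a cascade of plasma proteins that marks microbes and dying cells for uptake. C1q, built from the chains of *C1qa*, *C1qb* and *C1qc*, opens the classical pathway when it binds antibody or a surface, and C4 and C2 then form the enzyme that cleaves C3, the component on which all pathways converge. In the alternative pathway, factor B (*Cfb*) forms a C3-cleaving enzyme that properdin (*Cfp*) stabilizes. The liver makes most of the C3 and C4 in plasma, whereas macrophages and their relatives are the main source of C1q, and myeloid cells are a source of properdin.

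The libraries held from 4088065 counts (NaCl replicate 3) to 20123570 counts (control replicate 3). All 8 macrophage markers were tested, and their summed level was 14871 to 16230 CPM in control and 23560 to 31187 CPM in NaCl (CPM, a gene's counts per 1000000 of its library, with library sizes scaled by TMM), where *Lyz2* gave most of the sum. The summed level of 10 neutrophil markers was 249 to 542 CPM in control and 271 to 392 CPM in NaCl. Markers of stromal cells, which can make C3 and C4, were near 0, with a summed level over 9 genes of 1.27 to 4.89 CPM in control and 0.671 to 4.07 CPM in NaCl, and *Lum* was at 0 in every library. The sums were 181 to 322 and 203 to 382 CPM for 7 monocyte markers, 4.09 to 4.80 and 2.81 to 3.69 CPM for 7 dendritic cell markers, and 5.30 to 9.89 and 2.90 to 10.5 CPM for 5 B cell markers, of which *Pax5* was at 0. In bulk RNA, fewer cells of a type and less RNA per cell cannot be told apart.

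*C3* and *Cfp*, which differed most among the members with more than 18 reads in all, and the C1q genes are shown by their promoters. All 7 genes lie on the minus strand of the mouse genome (GENCODE M21, build GRCm38). *C1qb* (chr4:136880129-136886187), *C1qc* (chr4:136889804-136893065) and *C1qa* (chr4:136895917-136898803) stand side by side within 18675 bases with no other annotated gene between them. *C4b* (chr17:34728380-34743882), *Cfb* (chr17:34856374-34862518) and *C3* (chr17:57203970-57228136) are on chromosome 17, and *Cfp* (chrX:20925454-20931555) is on chromosome X. The RefSeq promoter table (GRCm38.p6) held 4 of the 7 genes. The bases upstream of the start site are given 5′ to 3′ for *C3* (chr17:57228137-57228386), *Cfp* (chrX:20931556-20931805), *C1qb* (chr4:136886201-136886450) and *C1qc* (chr4:136893066-136893164), the last limited to the 99 bases that lie outside exons in GENCODE M21, 152 to 250 bases before its RefSeq start site. Capitals mark matches to a motif on either strand.
C3: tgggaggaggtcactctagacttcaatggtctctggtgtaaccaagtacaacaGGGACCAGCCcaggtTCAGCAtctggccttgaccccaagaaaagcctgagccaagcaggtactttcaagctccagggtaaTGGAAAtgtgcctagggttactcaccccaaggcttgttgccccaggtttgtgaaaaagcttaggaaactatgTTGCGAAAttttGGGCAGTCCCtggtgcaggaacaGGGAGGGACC
Cfp: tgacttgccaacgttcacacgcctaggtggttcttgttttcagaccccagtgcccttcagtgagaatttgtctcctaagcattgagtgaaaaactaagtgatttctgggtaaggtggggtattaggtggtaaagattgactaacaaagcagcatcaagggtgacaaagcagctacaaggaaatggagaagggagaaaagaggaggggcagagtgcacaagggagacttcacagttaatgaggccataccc
C1qb: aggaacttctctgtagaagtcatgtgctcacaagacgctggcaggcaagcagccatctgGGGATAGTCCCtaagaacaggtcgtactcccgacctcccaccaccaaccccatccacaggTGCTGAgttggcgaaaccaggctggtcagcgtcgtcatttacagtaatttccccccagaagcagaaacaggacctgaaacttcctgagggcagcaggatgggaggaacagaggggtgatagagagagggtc
C1qc: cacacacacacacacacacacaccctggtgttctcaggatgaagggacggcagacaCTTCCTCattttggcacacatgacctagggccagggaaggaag
The motifs searched were a half-site for MAF factors (TGCTGA), an ETS site (GAGGAAG), the core of the site for the osmotic regulator NFAT5 (TGGAAA), a C/EBP site (TTGCNNAA) and an NF-kB site (GGGANNNNCC). In windows of 250 bases these letters occurred in 16.1%, 10.6%, 18.6%, 9.56% and 17.6% of 32851 promoters. The *C3* window held the MAF, NFAT5, C/EBP and NF-kB letters, and the *Cfp* window held none of the 5 motifs. The *C1qb* window held the MAF letters and NF-kB matches on both strands that overlap each other, and the *C1qc* window held the ETS letters in the part shown and the NFAT5 and NF-kB letters in the part left out. A match is a description of the sequence and not a binding site.

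Per kilobase of exonic bases, *C1qb* was the highest of the members, followed by *C1qc*, *C1qa*, *Cfp* and *C3*, while *C4b* was near 0 and *Cfb* is left out of this order. The mean level in control was 728 ± 148 CPM per kb for *C1qb*, 315 ± 44.8 for *C1qc*, 194 ± 44.1 for *C1qa*, 132 ± 29.3 for *Cfp* and 4.25 ± 0.536 for *C3* (SD, n = 3 each). *C1qb* ranked 35th in control and 41st in NaCl by this measure among 15484 genes with a known length. The 3 control libraries of *C1qa* (152 to 240 CPM per kb) overlapped those of *Cfp* (103 to 162), so the order of these neighbours was within their spread. In NaCl it was *C1qc* (178 to 288 CPM per kb) and *C1qa* (150 to 197) that overlapped, and *Cfp* (58.2 to 113) lay below both. The length taken for *C1qc* bears on this overlap, since its coding transcript has 1203 bases and its annotated exons 1931. Over the coding transcript its control level was 505 ± 71.9 CPM per kb, still below *C1qb* and above *C1qa*. In NaCl *C1qc* was then at 285 to 462 CPM per kb, which did not overlap *C1qa*.

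**Figure D1:**
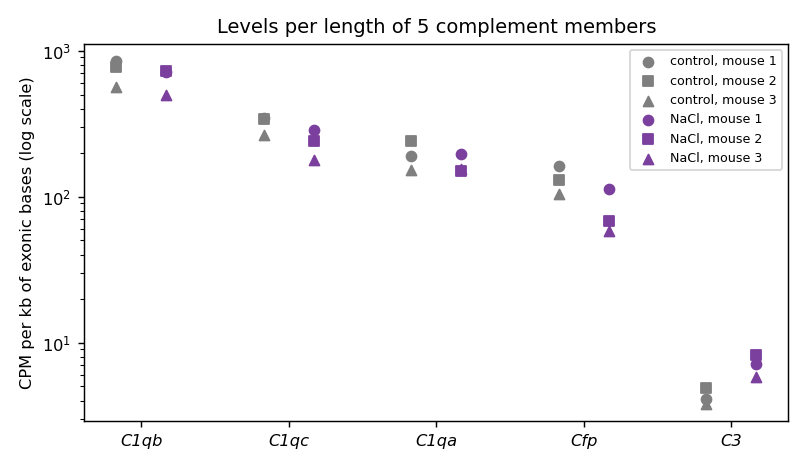
Levels of 5 complement members in CPM per kilobase of exonic bases (log scale) in the 6 libraries, control in grey and NaCl in purple, with the marker shape giving the mouse. *C1qb* is highest in every library, from 492 to 847 CPM per kb, and *C3* lowest, from 3.81 to 8.20.

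The comparison asked which complement transcripts differ between NaCl-treated and control BMDMs. *C3* was higher in NaCl in each of the 3 mice and *Cfp*, *C1qc* and *C1qb* were lower in each, as 20.1% and 23.4% of all genes tested were, and the differences were under 2-fold. In edgeR's quasi-likelihood fit without a term for the mouse, 0 of the 6 members tested had an adjusted p under 0.05, where 0.654% of all 15903 genes did, and 3 had an unadjusted p under 0.05, as did 12.6% of all genes. Fitting the mouse as a replicate block in edgeR, 1 member (*C3*) was higher and 2 (*Cfp* and *C1qc*) were lower. Of all genes, 4.6% were higher and 4.3% were lower in that fit, or 8.9% in all. DESeq2 called 1 member without the block, *C3*, where 1.54% of all genes were higher and 0.975% lower (2.52% in all). DESeq2 with the block called the same 3 members as edgeR with it, where 2.84% of all genes were higher and 2.23% lower (5.07% in all), and limma-voom without the block called 0. The median log2 fold change of the 6 members was -0.19, beside -0.01 over all genes tested.

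The C1q chains are the classical pathway's recognition protein, and the 3 genes together took from 0.106% to 0.184% of a library's counts. *C1qc* had 662, 653 and 508 CPM in control replicates 1, 2 and 3 and 555, 462 and 343 CPM in NaCl replicates 1, 2 and 3. It was lower in NaCl in every mouse, by -0.25, -0.50 and -0.57 on the log2 scale, although the groups overlapped because mouse 3 was low in both. The log2 fold change by edgeR (± standard error, SE) was -0.42 ± 0.19 (adjusted p = 0.393), and fitted with the mouse as a block it was -0.44 ± 0.12 (adjusted p = 0.0170), where *C1qc* fell. With the block and 1 mouse left out, it passed without mouse 2 (adjusted p = 0.00144 in edgeR) and not without mouse 1 (adjusted p = 0.116) or mouse 3 (adjusted p = 0.171).

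*C1qb* had 921, 842 and 612 CPM in the control libraries and 775, 786 and 536 CPM in the NaCl libraries. The NaCl library was the lower one in every mouse, but by only 0.10 to 0.25 on the log2 scale. Its log2 fold change by edgeR was -0.18 ± 0.20 (SE), with an adjusted p of 0.757, and of 0.396 with the block. *C1qa* had 197, 249 and 158 CPM in the control libraries against 204, 156 and 161 CPM in the NaCl libraries. The difference in *C1qa* came from mouse 2 alone (-0.68 on the log2 scale), with 0.05 and 0.03 in mice 1 and 3. By edgeR it amounted to -0.21 ± 0.18 (SE), with an adjusted p of 0.686, and of 0.418 with the block. For neither of these chains was a difference detectable.

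**Figure D2:**
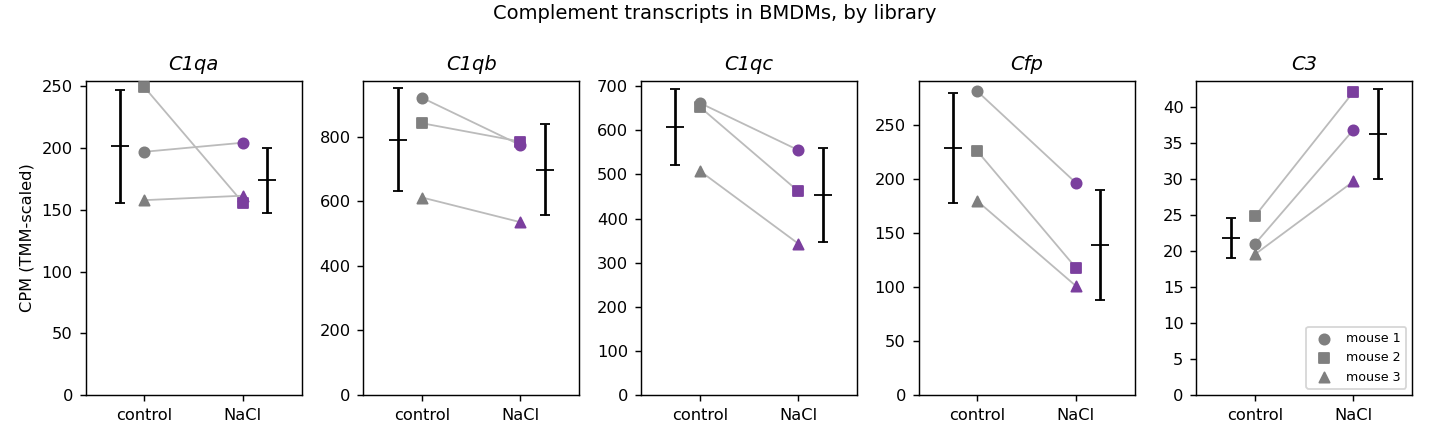
CPM of *C1qa*, *C1qb*, *C1qc*, *Cfp* and *C3* in control (grey) and NaCl (purple) libraries, with lines joining the libraries of 1 mouse and black bars giving the mean ± SD of 3 libraries. *C3* is the gene whose groups do not overlap, with 19.6 to 24.9 CPM in control and 29.7 to 42.2 CPM in NaCl.

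*C1qb* made up 47.9% to 51.7% of the C1q counts in control and 50.5% to 56.0% in NaCl, and *C1qc* 37.2% to 39.8% in control and 32.9% to 36.2% in NaCl. The log2 ratio of *C1qb* to *C1qc* was 0.48, 0.37 and 0.27 in the control libraries and 0.48, 0.77 and 0.64 in the NaCl libraries. These groups did not overlap, although mouse 1 showed no shift. The difference was 0.26 (exact permutation test, two-sided, p = 0.1, the smallest that 3 against 3 allow, adjusted p = 0.2 over 4 ratios). The ratio of *C1qa* to *C1qc* differed by 0.24 with overlapping groups (exact permutation test, p = 0.3, adjusted p = 0.3).

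C4 and C2 form the classical C3-cleaving enzyme, and their transcripts were scarce. *C4b* had 4, 2 and 1 reads in the control libraries and 2, 9 and 0 reads in the NaCl libraries, of which the 0 allows up to 0.719 CPM. The groups overlapped and 9 of the 18 reads came from NaCl replicate 2. Scaled to depth, *C4b* was lower in NaCl in mouse 1 and higher in mouse 2 (log2 differences -0.64 and 1.44). In mouse 3, 1 read in control stood against 0 in NaCl, so no direction could be read. Of the 75-base windows in its transcripts, 22.7% also occur in *C4a*, its neighbouring copy, so some reads cannot be assigned to either. *C4a*, which the authors' annotation lists as a long non-coding RNA, had 6, 4 and 16 reads in control and 10, 14 and 13 in NaCl. Scaled to depth, *C4a* was higher in NaCl in 3 of 3 mice, with 0.617 ± 0.229 CPM in control libraries and 1.83 ± 1.11 CPM in NaCl libraries. NaCl replicate 3, the smallest library, had 3.11 CPM, and NaCl replicates 1 and 2 had 1.12 and 1.27 CPM. Without NaCl replicate 3 the log2 fold change of *C4a* by edgeR was 0.90 (adjusted p = 0.487). With all libraries its log2 fold change by edgeR was 1.36 ± 0.52 (SE), with an adjusted p of 0.314, and *C4a* rose in the fit with the block (adjusted p = 0.0378). With the reads of *C4a* and *C4b* summed, edgeR gave a log2 fold change of 1.30 (adjusted p = 0.256), and of 1.38 with the block (adjusted p = 0.0428). *C2* had 2, 1 and 0 reads in control and 4, 4 and 3 in NaCl, and 46.9% of its exonic bases overlap other genes.

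*C3*, the component that all pathways cleave, had 185, 275 and 388 reads in the control libraries and 330, 465 and 124 reads in the NaCl libraries, which are 21, 24.9 and 19.6 CPM against 36.9, 42.2 and 29.7 CPM. Every NaCl library lay above every control library, as NaCl did for 8.92% of all genes tested. The level was 21.8 ± 2.76 CPM in control and 36.2 ± 6.25 CPM in NaCl, and within mice 1, 2 and 3 the log2 difference was 0.80, 0.75 and 0.60. The log2 fold change by edgeR was 0.74 ± 0.17 (SE), with an adjusted p of 0.106. *C3* rose with the mouse as a block (0.73 ± 0.13, adjusted p = 0.000643 in edgeR) and in DESeq2 (adjusted p = 0.0120 without the block and 0.00187 with it). With the block in edgeR it also passed with either mouse 1, 2 or 3 left out, at adjusted p-values of 0.0169, 3.24e-05 and 0.000269. Cell markers went both ways in the same libraries. In edgeR with the block, 4.6% of all genes were higher and 4.3% lower. Of 7 monocyte markers 2 rose and 0 fell in that fit. *Ifitm6* rose from 2.61 ± 0.211 to 28.3 ± 18.2 CPM (adjusted p = 0.00997 in edgeR without the block). *F13a1* rose from 40.1 ± 19.4 to 55.6 ± 3.47 CPM (adjusted p = 0.039 in edgeR with the block and 0.519 in DESeq2 with it). *Ly6c2*, *Ccr2*, *Chil3* and *Plac8* had negative log2 fold changes in edgeR with the block (-0.42, -0.25, -0.23 and -0.55) and did not pass. Of 8 macrophage markers 3 rose with the block (*Csf1r*, *Cd14* and *Lyz2*) and 1 (*Mertk*) fell. *Cd14* went from 288 ± 14.2 to 644 ± 69 CPM and *Lyz2* from 9817 ± 524 to 19148 ± 3609 CPM (adjusted p = 0.007 and 0.0424 in edgeR without the block). The summed stromal markers were at 4.89 CPM or less in every library. The part of these cells in the *C3* result was not tested.

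Properdin stabilizes the alternative pathway's enzyme, and its gene *Cfp* showed the largest fall among the members. It had 281, 226 and 180 CPM in control replicates 1, 2 and 3 and 197, 118 and 101 CPM in NaCl replicates 1, 2 and 3. Within each mouse NaCl was lower, by -0.52, -0.94 and -0.83 on the log2 scale, while NaCl replicate 1 lay above control replicate 3, so that the groups overlapped. The level was 229 ± 50.9 CPM in control libraries and 139 ± 51 CPM in NaCl libraries, and the log2 fold change by edgeR was -0.72 ± 0.25 (SE), with an adjusted p of 0.276. *Cfp* fell with the mouse as a block (-0.76 ± 0.12, adjusted p = 0.000116 in edgeR and 6.63e-06 in DESeq2), and with the block it passed with any 1 of the 3 mice left out. Without the block it passed when NaCl replicate 1 was left out (log2 fold change -1.06, adjusted p = 0.0446 in edgeR). Neutrophils also hold properdin, and 2 of 10 neutrophil markers, *Mpo* and *Ngp*, fell in the edgeR fit with the block, where 4.3% of all genes did, and missed the threshold in DESeq2 with the block (adjusted p = 0.141 and 0.0664). *Mpo* was at 11.1 ± 1.81 CPM in control libraries and 7.03 ± 3.59 CPM in NaCl libraries. Of 8 macrophage markers 1 fell in edgeR with the block, while 3 (*Csf1r*, *Lyz2* and *Cd14*) rose, where 4.6% of all genes did. The marker that fell was *Mertk*, a receptor for the uptake of dying cells, from 93.4 ± 19.2 to 47.3 ± 16.1 CPM. Its adjusted p in edgeR was 4.28e-06 with the block and 0.12 without it. The part of these marker differences in the result was not tested.

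*Cfb*, the alternative pathway's protease, had 0, 2 and 1 reads in control and 0, 0 and 1 in NaCl, all under 3 reads, so no fold change is given. In GENCODE M21, 79.5% of its exonic bases overlap *Gm20547*, a gene on the same strand that joins *C2* and *Cfb*, and *Gm20547* had 0 reads in all 6 libraries. STAR's gene counts leave out reads that overlap more than 1 gene, so reads from exons shared in this way would be in neither row. Reads that lie only in the other exonic bases of *Cfb* would still be counted, and *Cfb* had 4 reads in all. The level over the shared exons could not be read from these counts. The same applies to the overlapped exons of *C2*.

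The proportions between members were compared as 4 ratios. The exact permutation test could call none of them, since its smallest possible p of 0.1 lies above the threshold. It also took no account of the pairing by mouse, so the ratios are described by their values. The log2 ratio of the C1q chains (the mean of the 3) to *C3* was 4.54, 4.36 and 4.21 in control and 3.59, 3.18 and 3.37 in NaCl. The groups did not overlap, and the difference of -0.99 was seen in 3 of 3 mice (exact permutation test, two-sided, p = 0.1, the smallest possible, adjusted p = 0.2). The log2 ratio of the C1q chains to *Cfp* was 0.81, 1.19 and 1.03 in control and 1.18, 1.70 and 1.61 in NaCl. It was higher by 0.49 in NaCl, with overlapping groups (exact permutation test, p = 0.2, adjusted p = 0.267), and by 0.37, 0.51 and 0.59 within mice 1, 2 and 3. The ratio of *Cfb* to *C3* could not be formed.

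**Figure D3:**
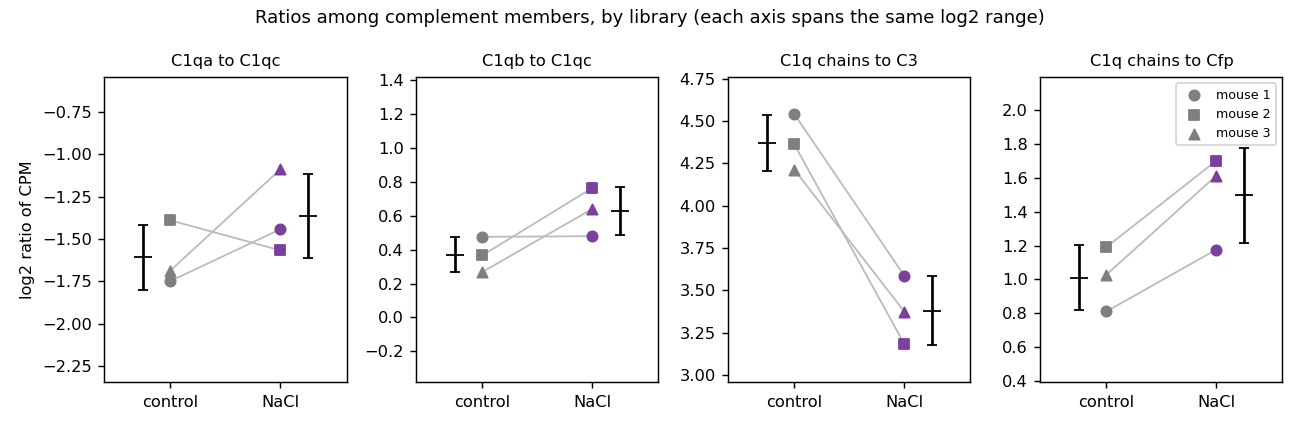
The log2 ratio of CPM for 4 pairs of complement members in each library, control in grey and NaCl in purple, with lines joining the libraries of 1 mouse and bars giving mean ± SD (n = 3). The ratio of the C1q chains to *C3* drops from 4.37 ± 0.16 in control to 3.38 ± 0.20 in NaCl, and every axis spans the same log2 range.

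The other genes of the pathway were described from a list of 46, all of them in the raw table. Of these, 21 had under 10 reads in all, including *Cfd*, *Cfi* and *C4bp*, which had none, and 25 were tested. Without the block, edgeR called 0 of the 25 (5 had an unadjusted p under 0.05, beside 12.6% of all genes), and DESeq2 called 0 with or without the block. DESeq2 gave no adjusted p for some genes with few reads, among them *C4a* with the block, so these could not be called. With the block in edgeR 1 was higher (*C4a*) and 2 were lower (*Vsig4* and *Cd93*), 3 of the 25 beside 8.9% of all genes. The median log2 fold change was -0.01, as over all genes tested. In 3 of the 25 every NaCl library lay above every control library, and in 2 below, where 8.92% and 10.1% of all genes did so.

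Both genes that were lower with the block encode receptors. *Vsig4*, the macrophage receptor for C3 fragments, had 4.89, 8.15 and 4.24 CPM in the control libraries against 3.35, 2.18 and 2.40 CPM in the NaCl libraries. The groups did not overlap, and edgeR gave -1.10 ± 0.33 (log2 fold change ± SE, adjusted p = 0.2). It fell in the edgeR fit with the block (adjusted p = 0.00706) but missed the threshold in DESeq2 with the block (adjusted p = 0.103). *Cd93*, first described as a C1q receptor, had 619, 558 and 459 CPM in the control libraries against 523, 349 and 380 CPM in the NaCl libraries. Here edgeR gave -0.39 ± 0.18 (adjusted p = 0.416). *Cd93* fell in the edgeR fit with the block (adjusted p = 0.0373) but missed the threshold in DESeq2 with the block (adjusted p = 0.0512).

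The receptors for the small fragments C3a and C5a were chosen for mention after their values were seen. *C3ar1* had 1135, 1160 and 1153 CPM in the control libraries against 901, 956 and 925 CPM in the NaCl libraries, so that the groups lay apart with little spread. By edgeR it differed by -0.31 ± 0.12 on the log2 scale (adjusted p = 0.314, and 0.0977 with the block). *C5ar1* had 436, 564 and 577 CPM in the control libraries against 464, 913 and 629 CPM in the NaCl libraries, where replicate 2 was high (adjusted p = 0.586 by edgeR). *C5ar2* averaged 16.2 ± 1.29 CPM in the control libraries and 22.9 ± 4.62 CPM in the NaCl libraries (adjusted p = 0.296 by edgeR, and 0.0514 with the block).

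Of the 7 terminal pathway genes, which form the membrane attack complex, 1 reached 10 reads in all, *C8g*, with 131 reads.

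**Figure D4:**
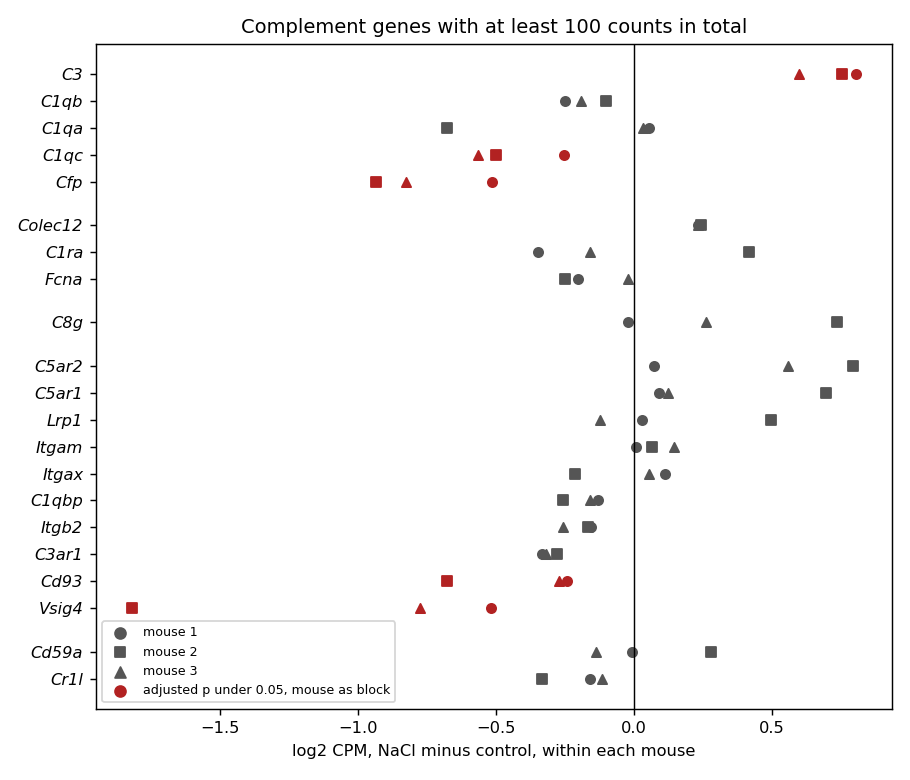
Difference in log2 CPM, NaCl minus control, within each of 3 mice for 21 complement genes with at least 100 counts in total, grouped by role with the members at the top, and in red where the adjusted p was under 0.05 in edgeR with the mouse as a block. *C3* stands right of 0 (0.60 to 0.80) and *Cfp* left of it (-0.94 to -0.52) in every mouse.

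The genes with the most similar profiles were sought among 9919 genes with a mean of at least 50 counts, as the root mean square difference (RMS) between log2 CPM profiles over the 6 libraries, each centred on its mean. The libraries share mice and treatment, so this is a description. Nearest to the mean of the C1q chains were *Itsn1* (RMS 0.05), *Rnase4* (0.06) and *Mpp7* (0.08), beside 0.26 for a flat profile. *Itsn1*, which encodes an endocytic scaffold protein, had 191, 182 and 141 CPM in the control libraries against 160, 143 and 117 CPM in the NaCl libraries, with mouse 3 the lowest in each group, as for *C1qb* and *C1qc*. Nearest to *Cfp* were *Pilra* (RMS 0.12), *Maf* (0.12) and *Sqor* (0.12), beside 0.51 for a flat profile. *Maf*, a transcription factor of macrophages, had 322, 236 and 206 CPM in the control libraries against 215, 110 and 121 CPM in the NaCl libraries. It was picked for its likeness to *Cfp* in these libraries, so a test of its fall would add nothing to that of *Cfp*. Nearest to *C3* were *Lyz1* (RMS 0.09), *Cntrob* (0.11) and *Col4a5* (0.11), beside 0.40 for a flat profile, and 6.22% of the 75-base windows of *Lyz1* also occur in *Lyz2*. Among *C1qa*, *C1qb*, *C1qc*, *Cfp* and *C3*, the closest pair was *C1qb* and *C1qc* (RMS 0.16) and the farthest *C3* and *Cfp* (0.81).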

How the data were processed

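Polyadenylated RNA of 6 BMDM libraries was sequenced (75 bp, single-end) by a kit that keeps no strand information. Per the submitters' processing notes and methods, reads were trimmed with fastp 0.20.0 and aligned to mm10 with STAR 2.7.10b, and the authors deposited STAR's raw counts per gene and a normalized signal, in which a size factor from DESeq2 1.40.2 divides the counts of each library. The deposited signal equalled count over a single factor per library within a relative 1e-06, so the counts were used. The methods name GENCODE vM32, which belongs to another build than mm10, and positions here are from GENCODE M21 and RefSeq.

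Testing covered the 15903 genes whose counts over the libraries summed to 10 or more and used edgeR 4.0.16 (TMM, glmQLFit and glmQLFTest, NaCl against control), adjusted by Benjamini-Hochberg with a threshold of 0.05. Each of mice 1, 2 and 3 is labelled in both groups, so the mouse pairs the samples. Across genes the 2 libraries of a mouse deviated together from their group means (r = 0.43, 0.15 and 0.22). Libraries of different mice gave r from -0.35 to 0.12. Deviations in a group of 3 sum to 0, so these values are tied to those within a mouse. For mouse 2 the r of 0.15 was close to the 0.12 of control replicate 3 with NaCl replicate 2. A replicate block for the mouse, DESeq2 1.42.0, limma-voom (limma 3.58.1), other scaling and filters, thinning and leaving out libraries or mice were alternatives. Summing C4b and C4a with the block was added after the data were seen. log2 CPM used a prior count of 2. The SE given with edgeR was derived as the absolute log2 fold change over the square root of the F statistic. The script was tested on simulated data. R 4.3.3 and Python 3.11.15 were used.

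The members, lists and rules were chosen with earlier results of these data known. Named were all members, listed pathway genes past the threshold without or with the block, and for the C1q chains, Cfp and C3 the 3 genes with the nearest profile. C2, C8g, Cfd, Cfi, C4bp, the C3a and C5a receptors and single markers fall outside that rule and were named after their values were seen. For Cfb the nearest genes and its ratio to C3 could not be computed. Some listed genes are not reported here by name.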

Additional observations from a re-analysis of the deposited data

How the results depend on the processing

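The number of members past the threshold depended on the processing. Against 0 higher and 0 lower in edgeR without the block, adding the replicate block (the mouse) called 1 and 2, DESeq2 called 1 and 0 (1 and 2 when blocked), testing every gene with at least 1 count called 1 and 1, and summing C4b and C4a with the block, chosen after the data were seen, 2 and 2. With the block and 1 mouse left out, 1 was higher and 1 to 2 were lower. Without the block, leaving out 1 library gave 0 higher and 0 to 1 lower, the 1 being Cfp without NaCl replicate 1. Among the other complement genes, against 0 and 0, the replicate block called 1 higher and 2 lower, and testing every gene with at least 1 count called 0 and 1. The cause was not tested. Median-ratio factors, total count scaling, filterByExpr, limma-voom and thinning changed none of these counts.

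Of the 6 members, 5 kept the direction of their log2 fold change under every alternative that could be fitted, from 0.63 to 0.89 for C3, from -1.06 to -0.54 for Cfp, from -0.59 to -0.26 for C1qc, from -0.32 to -0.02 for C1qb and from 0.43 to 2.01 for C4b, which rests on 18 reads. C1qa reversed to 0.052 with the replicate block and without mouse 2. With 1 library left out, the difference in log2 ratio stayed from -1.09 to -0.89 for the C1q chains to C3, from 0.39 to 0.65 for the chains to Cfp, from 0.19 to 0.33 for C1qb to C1qc and from 0.10 to 0.35 for C1qa to C1qc. Each of the 4 ratios kept its direction with raw counts plus 0.5. C4b could not be fitted without NaCl replicate 2 or mouse 2, after thinning or with filterByExpr, where it fell under the minimum. It was higher in NaCl in mouse 2 and lower in mouse 1, and mouse 3, with 1 read against 0, gave no direction. The direction of C4b without NaCl replicate 2 was not examined. Depth limits genes with few reads, such as C4b (18 reads) and C4a (63 reads).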
